A study of Mus musculus with 15 samples.

Results

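Overexpression of exportin-4 (XPO4) without TGFb was compared directly with TGFb treatment of empty-vector cells, 2 single perturbations of JS1, a line of mouse hepatic stellate cells, by RNA sequencing. Of the 15 libraries of the series, 7 entered: 3 of untreated cells transduced to overexpress XPO4 (numbered 0 to 2, as in the library titles) and 4 of cells that carried the control empty vector and received TGFb (0 to 3). All of them came from TLR4-/- cells in which wild-type TLR4 is expressed. A further 4 libraries of untreated empty-vector cells (EV) served to show from which level each perturbation moved, and the 4 libraries that combined XPO4 with TGFb were not used. The series as a whole asks what XPO4 does in these cells with and without the cytokine. Dose and duration of TGFb, the species of the XPO4 construct and whether each culture was 1 clone are not in the labels.

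Values are FPKM (fragments scaled to transcript length and to the mapped fragments of the library), which the authors deposited in 1 table of untreated and 1 of TGFb-treated libraries. A gene was tested when its mean over the 7 libraries reached 1 FPKM, which 11958 of 38277 did. Wdr60 (mean 1.0001 FPKM) lay just inside that limit and Abhd15 (0.9949 FPKM) just outside. Some genes reached it through 1 group alone, among them Ifnb1 and Mpeg1 (XPO4) and Ctsw, Evpl and Postn (TGFb). Such genes were tested because they are high in that group, so their adjusted p is no separate support. Differences are on the log2(FPKM + 1) scale, XPO4 minus TGFb, which understates the change of genes near or below 1 FPKM. A gene was called at a limma adjusted p (Benjamini-Hochberg) under 0.05. The groups differ in construct and in treatment and lie in separate tables, so a difference between them does not by itself say which group moved. Nothing states that the libraries of a group came from separate cultures, so the p-values rest on a spread between libraries that could be technical only.

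Stellate cells are the main source of scar matrix in the liver. TGFb binds a receptor kinase pair that phosphorylates Smad proteins, and in stellate cells it drives contractile fibres and collagen. Exportin-4 carries proteins out of the nucleus, and eIF5A and Smad3 are among its known cargo. Type I interferon signals in turn through a receptor, the kinases Jak1 and Tyk2 and a complex of transcription factors to switch on antiviral genes.

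The libraries were alike in size: FPKM summed to between 480030 and 526338, 11858 to 11943 genes reached 1 FPKM, and transcripts of the mitochondrial genome made up 3.40% to 4.66% of the sum. The tables give no counts, and absolute depth is therefore unknown. Vim (2134 to 2856 FPKM), Hand2 and Col1a1 were measured in every library, whereas the stellate marker Lrat was listed at 0 in all 7 and the stellate markers Des and Pdgfrb reached at most 2.35 and 1.09 FPKM. Of 9 hepatocyte markers 8 were listed at 0 in all 7, and so were 7 of 8 lymphocyte markers. The 10 macrophage markers summed to 29.2 to 34.8 FPKM with XPO4 and 30.8 to 33.8 with TGFb, mostly from Cd14, with Emr1, Clec4f, Marco and Timd4 at 0. The 8 endothelial markers summed to 0.927 to 1.76 FPKM with XPO4 and to 1.98 to 3.88 with TGFb. Their part in the results was not tested.

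Xpo4 itself, on chromosome 14 (57577521 to 57665430, minus strand, GRCm38), was read at 17.4, 13.97 and 15.7 FPKM in the XPO4 libraries and at 4.56, 7.16, 8.84 and 8.04 FPKM with TGFb. Each XPO4 library lay above each TGFb library, and the untreated EV libraries, at 6.83, 9.33, 8.18 and 6.09 FPKM, overlapped those with TGFb. The mean was 2.19 times that with TGFb (log2 difference 1.06, SE 0.19, limma adjusted p = 0.0123). An exact two-sided permutation test gave p = 0.0571, the smallest that 3 against 4 libraries allow. The limma call ended without XPO4 library 0 (adjusted p = 0.0626) or XPO4 library 2 (0.0518). Among the cargo proteins' genes, Smad3 (20.2 ± 1.60 against 23.3 ± 2.26 FPKM, mean ± SD, n = 3 and 4), Eif5a and Eif5a2 did not pass the test (limma adjusted p = 0.322, 0.12 and 0.489).

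Head to head, 465 genes were higher with XPO4 and 340 higher with TGFb, 6.73% of those tested (3.89% and 2.84%). Which side had more genes depended on the scaling: it was 408 against 436 after quantile normalization, 372 against 479 with FPKM rescaled to a fixed sum (TPM scale) and 424 against 389 with median centring, so that the share higher with XPO4 was 48.3%, 43.7% and 52.2% in place of 57.8%. Differences of more than 2-fold were mostly on the XPO4 side, with 188 genes against 57. The 12 largest differences on the XPO4 side by the naming rule were those of Mx1, Ifit3, Iigp1, Mpeg1, Tgtp2, Slfn4, Ly6a, Ifnb1, AI607873, Pyhin1, H2-T23 and Tgtp1, and on the TGFb side those of Ctsw, Acta2, Evpl, Postn, Tagln, Mtus1, Ctla2a, Col8a2, Col11a1, Crispld2, Klhl30 and Adam12. The median difference of all genes tested was 0.00742 on the log2 scale, and the 3 and 4 libraries did not overlap in 20.7% of genes. The count of 805 called genes fell to 465, 468 and 536 without XPO4 library 0, 1 or 2 and to 533 without TGFb library 1. Those higher with XPO4 numbered 273 and 299 without XPO4 library 0 or 1. Those higher with TGFb numbered 192, 169 and 207 without XPO4 library 0, 1 or 2, and 204 and 194 without TGFb library 1 or 3.

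**Figure D1:**
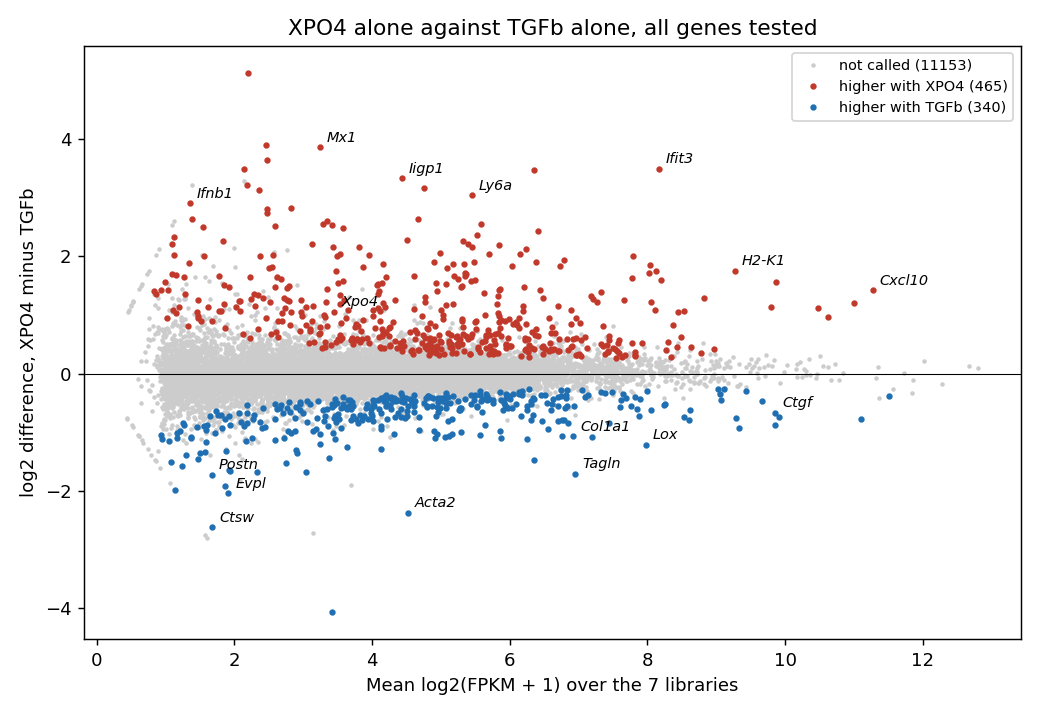
Difference between XPO4 and TGFb libraries (vertical axis, log2 of FPKM + 1) against the mean level over the 7 libraries (horizontal axis), 1 point per gene tested. Red points are the 465 genes called higher with XPO4 and blue points the 340 called higher with TGFb. More than 1 unit from 0 lie 188 red and 57 blue points, with Mx1 and Ifit3 labelled toward the top and Acta2, Ctsw and Evpl toward the bottom.

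The ligand at the head of the interferon pathway was read almost only with XPO4. Ifnb1, interferon beta, stood at 8.28, 7.89 and 5.36 FPKM in the XPO4 libraries. With TGFb it was listed at 0 in 3 libraries and at 0.334 FPKM in library 2, and in untreated EV cells it was 0, 0.738, 0 and 0.827 FPKM. All 3 XPO4 libraries were therefore above all 8 empty-vector libraries (head to head log2 difference 2.91, SE 0.22, limma adjusted p = 6.96e-05), and with values of 0 in the lower group the size of that difference depends on the pseudocount. Of the 12 listed interferons and receptors, 6 reached the filter, and Ifna4, Ifna2, Ifng, Ifnl2, Ifnl3 and Ifnlr1 did not. Ifnb1 reached it only through the XPO4 libraries (mean 7.18 FPKM, against 0.0834 with TGFb). The receptor genes gave a different picture: Ifnar1 (20.8 against 24.7 FPKM) and Ifnar2 (28.3 against 23.3 FPKM) did not pass (adjusted p = 0.171 and 0.165). The interferon gamma receptor chain Ifngr2 was lower with XPO4 (-0.42 log2, adjusted p = 0.0425), but that call was lost on leaving out any of the 7 libraries (adjusted p up to 0.146).

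Downstream of the receptor, 8 of 15 signalling genes were higher with XPO4 (beside 3.89% of all genes tested) and 0 with TGFb. Their median log2 difference was 0.658. Irf7, the transcription factor that amplifies interferon production, was at 508, 481 and 473 FPKM with XPO4 and 118, 107, 138 and 124 FPKM with TGFb (log2 difference 1.997, SE 0.09, limma adjusted p = 4.56e-06). The transcription factor Stat2 was read at 103, 98.1 and 102 against 36.2, 36.8, 40.3 and 33.8 FPKM (1.44). The groups were separate for both genes. Irf9, Irf1, Jak2 and the feedback inhibitors Usp18 (1.71) and Socs1 (1.11) were higher too, while Jak1, Tyk2, Stat3, Irf2, Irf3, Irf5 and Socs3 did not pass. Irf7, Stat2, Irf9, Usp18 and Socs1 are, as background, known to be induced by interferon themselves.

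Sensors of foreign nucleic acid followed the same direction, with 12 of 17 higher with XPO4 (beside 3.89% of all genes tested) and 0 lower. Their median difference was 0.78. Zbp1, which senses Z-form nucleic acid, was at 118, 117 and 113 FPKM with XPO4 and 25.4, 15.9, 27.6 and 19.7 FPKM with TGFb (log2 difference 2.37, SE 0.17, limma adjusted p = 5.53e-05). Tlr3, the endosomal receptor for double-stranded RNA, was at 38.5, 39.2 and 31.9 and 7.78, 10.3, 11.5 and 8.09 FPKM (1.86). Dhx58, a relative of the RNA helicase sensors, was at 87.9, 80.1 and 83.1 and 25.5, 19.4, 22.7 and 21.1 FPKM (1.88). No library of one group reached into the other for these genes. The helicases Ifih1 (1.001) and Ddx58 (0.94) differed less, and Mb21d1, Aim2, Tbk1, Ikbke and Tlr4 did not pass.

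The antiviral effector list was split almost completely, with 41 of 43 measured members higher with XPO4 (3.89% of all genes tested) and 0 higher with TGFb. Its median log2 difference was 1.53, and 2 members did not pass. Mx1, a dynamin-like GTPase that blocks viral replication (chromosome 16, 97447035 to 97462907), was at 44.3, 43.6 and 39.7 FPKM with XPO4 and at 1.47, 3.60, 2.54 and 0.994 FPKM with TGFb. Its mean was 19.8 times higher in the XPO4 libraries (log2 difference 3.86, SE 0.26, limma adjusted p = 3.85e-05), and the untreated EV level was 2.80 ± 0.540 FPKM (SD, n = 4). Ifit3, which binds viral RNA as part of the IFIT complex (chromosome 19, 34583531 to 34588731), read 1199, 1139 and 1085 FPKM against 94.9, 99.6, 115 and 93.5 FPKM (log2 difference 3.49, SE 0.09, limma adjusted p = 4.43e-07). Its spread within each group was a small part of the gap between them. Mx2 (2.48), Cmpk2 (2.19), Rsad2 (2.42), the oligoadenylate synthetases Oas3 (2.54) and Oas2 (2.21) and the ubiquitin-like Isg15 (1.11) were further members that passed. The count was 41 with each library left out in turn as well.

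Promoters of 3 genes from the antiviral and GTPase lists are shown because the members of these lists moved together. Each gene has a large difference and a promoter sequence in the table used. Each sequence holds GAAA, any 2 bases and GAAA, the core of the interferon-stimulated response element. The 3 are a selection and need not have the largest differences among genes with a match. Mx1 and Iigp1, whose differences were larger than that of Tgtp2, are not shown. The sequences are from RefSeq (GRCm38.p6), 100 bases each, read along the gene's strand, with the motif in capitals. It was searched on both strands in the 250 bases upstream of each start, so TTTC, any 2 bases and TTTC is the same motif on the other strand.
Ifit3 (chr19:34583353-34583452, plus strand): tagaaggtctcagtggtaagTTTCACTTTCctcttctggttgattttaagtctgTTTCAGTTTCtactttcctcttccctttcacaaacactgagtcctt
I830012O16Rik (chr19:34607749-34607848, plus strand): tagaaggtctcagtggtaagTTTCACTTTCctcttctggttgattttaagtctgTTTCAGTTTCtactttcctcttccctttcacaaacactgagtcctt
Tgtp2 (chr11:49064213-49064312, minus strand): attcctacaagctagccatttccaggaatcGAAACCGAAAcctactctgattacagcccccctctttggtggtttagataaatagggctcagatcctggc
The Ifit3 window holds 2 matches, which end 146 and 112 bases before the start of the gene, and the Tgtp2 window 1, which ends 60 bases before it. I830012O16Rik, named Ifit3b in GENCODE, has the same 100 bases as Ifit3 (100 of 100 identical), with its matches 178 and 144 bases before its own start. Of 26973 genes with a promoter sequence, 3.47% hold a match. A share over the antiviral and GTPase lists would be void, since 33 of 43 and 8 of 12 members have a sequence. Of the 17 antigen presentation genes 14 have a sequence, and 4 of these hold a match (28.6%). A match is a description of the letters and not a site shown to be bound.

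Because Ifit3 and I830012O16Rik are near-identical copies, as are Tgtp1 and Tgtp2, the authors' counting may have split their reads, which leaves the levels of the single copies uncertain. I830012O16Rik read 335, 314 and 318 FPKM with XPO4 and 25.9, 27.6, 34.4 and 25.5 with TGFb, about the same difference (3.47) as Ifit3. Tgtp2 was at 67.1, 146 and 83.4 against 6.24, 11.8, 9.67 and 11.8 FPKM and Tgtp1 at 23.6, 33.4 and 26.2 against 3.23, 3.37, 4.58 and 3.72 FPKM. In the XPO4 group the values of Tgtp2 varied from library to library more than those of Tgtp1.

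The interferon-inducible GTPases, which attack the vacuoles of intracellular pathogens, were higher with XPO4 in 12 of 12 measured members (3.89% of all genes tested). The median was 1.83 and the range from 1.11 (Gvin1) to 3.33 (Iigp1). Iigp1, an immunity-related GTPase, was at 80.6, 83.8 and 74.3 FPKM with XPO4 and 7.003, 5.18, 10.6 and 6.23 FPKM with TGFb. The mean ratio was 10.98 (log2 difference 3.33, SE 0.19, limma adjusted p = 1.36e-05), and the untreated EV libraries (6.68, 6.78, 11.01 and 8.13 FPKM) overlapped those with TGFb. Gbp3 (106, 104 and 97.8 against 23.9, 19.3, 26.9 and 19.2 FPKM, 2.16) and Igtp (178, 185 and 168 against 43.5, 44.6, 51.4 and 46.4 FPKM, 1.91) showed tight groups. Irgm1, which regulates the other family members, had a smaller difference (1.26) at a high level (332 against 138 FPKM). Predicted genes fall outside the naming rule, and one of them, Gm12250, was chosen after its values were seen, at 22.1, 29.8 and 22.6 FPKM with XPO4 and 0.538, 1.08, 0.861 and 0.470 with TGFb.

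Antigen presentation by MHC class I also stood higher with XPO4, in 14 of 17 members (beside 3.89% of all genes tested), with 0 lower. The median was 1.52. H2-K1, a classical class I heavy chain, was at 1311, 1127 and 1271 FPKM with XPO4 and 393, 323, 379.7 and 366 FPKM with TGFb (log2 difference 1.76, SE 0.09, limma adjusted p = 8.05e-06). H2-T23, the mouse counterpart of HLA-E, was at 78.2, 55.1 and 82.3 and 11.2, 9.47, 12.4 and 9.47 FPKM (2.63). Tap1, a subunit of the peptide transporter, was at 78.5, 75.9 and 78.6 and 23.9, 21.96, 26.2 and 23.8 FPKM (1.66). Each of the 3 genes had XPO4 libraries at over 2 times the level of any TGFb library. The peptide side of the pathway went along, with Psmb9 of the immunoproteasome at 2.21, the transactivator Nlrc5 at 1.52 and the light chain B2m at 0.97 on the log2 scale. Members of the H2 family share sequence, so their separate levels are less certain than their direction, and Tapbpl, Erap1 and Psmb10 did not pass.

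Of 30 listed chemokines and cytokines, 16 reached the filter. Among these 16, 9 were higher with XPO4 (beside 3.89% of all genes tested) and 0 higher with TGFb. With a filter of 5 FPKM, 5 of 7 were higher with XPO4, beside 439 of 9101 genes tested. Cxcl10, which attracts T cells through CXCR3, was among the most abundant transcripts named here, at 4571, 4259 and 4182 FPKM with XPO4 and 1621, 1584, 1606 and 1669 FPKM with TGFb (log2 difference 1.42, SE 0.06, limma adjusted p = 4.56e-06). The untreated EV libraries (2134, 2024, 2032 and 1992 FPKM) lay between the groups. Ccl5, a chemokine for T cells and monocytes, showed the same order, with 418 ± 15.7 FPKM for XPO4, 207 ± 12.1 for untreated EV and 135 ± 12.6 for TGFb (SD, n = 3, 4 and 4). Against untreated EV it rose by 1.01 with XPO4 and changed by -0.61 with TGFb (limma adjusted p = 7.24e-06 and 0.00139). The monocyte chemokines Ccl2 (165.2, 177 and 133 against 49.0, 33.8, 39.3 and 31.0 FPKM) and Ccl7 (77.2, 68.8 and 65.7 against 15.2, 15.5, 19.4 and 15.4 FPKM) differed by 2.03 and 2.05. Cxcl11, Il6, Il33, Il15 and Csf1 completed the called members, whereas Cxcl1, Cxcl12, Cxcl16, Ccl9, Lif, Csf2 and Tslp did not pass.

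**Figure D2:**
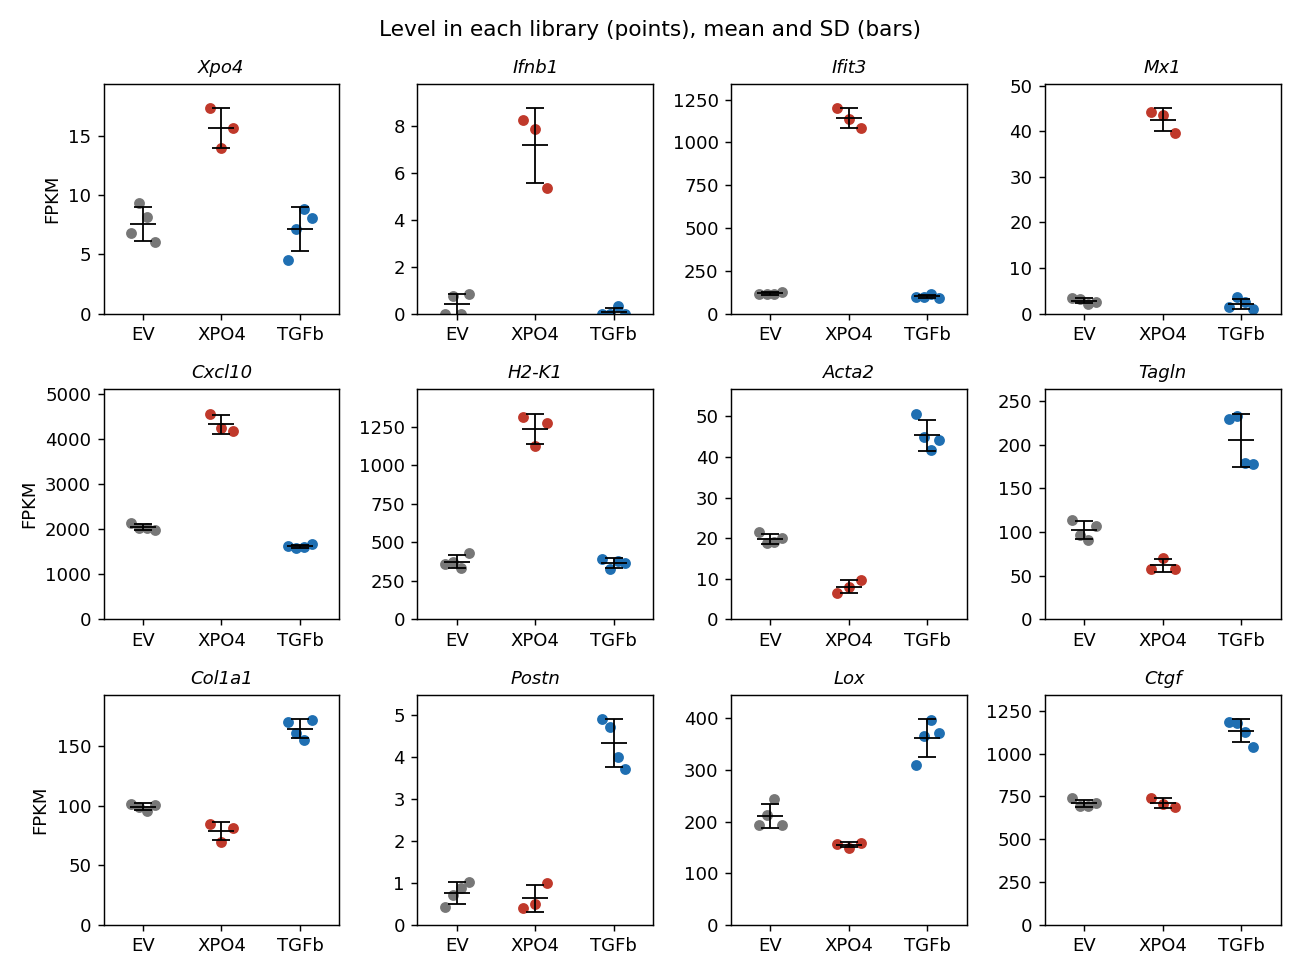
FPKM of 12 genes (linear vertical axes that start at 0) in untreated empty-vector (EV, grey), XPO4 (red) and TGFb (blue) libraries, with 1 point per library and bars for the mean and SD. Ifnb1, Ifit3, Mx1 and H2-K1 are high only in the red points, Acta2 and Tagln are lowest in red and highest in blue, and Postn and Ctgf are high only in blue.

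On the TGFb side, most genes for the cytokine's own ligands and receptors did not pass. Of 25 measured ligands, receptors and Smads, 2 were higher with TGFb and 1 with XPO4, beside 2.84% and 3.89% of all genes tested. Tgfb1 (25.6 ± 1.70 against 29.6 ± 3.30 FPKM) and the type I receptor Tgfbr1 (4.59 ± 0.314 against 6.63 ± 0.421 FPKM) did not pass (adjusted p = 0.319 and 0.0513). Tgfbr1 passed under some alternatives, such as the TPM scale (limma adjusted p = 0.0354) and the joint fit of 4 groups (0.0219). With each library left out in turn it did not pass. Thrombospondin 1 (Thbs1), which releases latent TGFb, was at 18.9, 19.0 and 20.3 FPKM with XPO4 and 35.6, 43.7, 39.4 and 37.3 FPKM with TGFb (log2 difference -0.97, SE 0.09, limma adjusted p = 0.000249). Untreated EV cells were lower than both, at 13.8, 16.2, 15.4 and 14.4 FPKM, so this member had risen in each perturbation (limma adjusted p = 0.043 with XPO4 and 2.72e-05 with TGFb). The other gene higher with TGFb was Fstl1 (-0.56), and the co-receptor Tgfbr3 was higher with XPO4 (0.44), a call that ended when any 1 of 6 libraries was left out (adjusted p up to 0.127).

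Among 33 measured Smad targets and feedback genes, 11 were higher with TGFb (2.84% of all genes tested) and 2 with XPO4, with a median of -0.274. Ctgf, a matricellular growth factor, was at 742, 707 and 686 FPKM with XPO4 and 1183, 1180.4, 1128 and 1039.8 FPKM with TGFb (log2 difference -0.67, SE 0.07, limma adjusted p = 0.000566). The untreated EV libraries (739, 692, 691 and 709.8 FPKM) overlapped the XPO4 libraries. Feedback inhibitors of Smad signalling split: Pmepa1 was higher with TGFb (78.8 against 137 FPKM, -0.79) and so was D18Ertd653e, named Ldlrad4 in GENCODE (-1.02), whereas Smad7 was at 15.9, 14.95 and 18.5 against 17.4, 16.7, 13.8 and 17.2 FPKM (adjusted p = 0.966). Snai2 (0.65) and the cell cycle inhibitor Cdkn1a (0.40) were the 2 higher with XPO4, and that count was 0 without XPO4 library 0 or 1 or TGFb library 1 or 3 and 1 without XPO4 library 2.

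Contractile genes of the myofibroblast were higher with TGFb in 10 of 30 measured members (beside 2.84% of all genes tested). With XPO4 0 were higher (median -0.375). Acta2, the smooth muscle actin that defines myofibroblasts (chromosome 19, 34241090 to 34255590, minus strand), was at 6.39, 8.01 and 9.69 FPKM with XPO4 and 50.7, 45.0, 41.6 and 44.1 FPKM with TGFb. The TGFb mean was 5.65 times the XPO4 mean (log2 difference -2.37, SE 0.13, limma adjusted p = 1.17e-05), and untreated EV cells stood between at 21.4, 18.8, 18.9 and 20.0 FPKM, with no overlap among the 3 groups. Tagln, the actin-binding protein transgelin (chromosome 9, 45929619 to 45936058), showed the same order at 57.4, 70.6 and 57.7 FPKM with XPO4, 114, 96.4, 90.9 and 107 in untreated EV and 229, 234, 179 and 178 with TGFb (-1.71 head to head). Against untreated EV, Acta2 fell by 1.22 with XPO4 and rose by 1.16 with TGFb, and Tagln fell by 0.71 and rose by 0.99 (limma adjusted p = 4.05e-05, 0.000383, 0.00515 and 0.00118). In bulk RNA, fewer cells of a type and less RNA per cell cannot be told apart. Tpm1 (tropomyosin, -0.74), Flna (filamin A, -0.60), Pdlim7 (-0.80), Cald1, Zyx, Csrp1, Actn1 and Vcl were the remaining called members. Scaling to a fixed sum or by quantiles raised the count from 10 to 16, and with each library left out in turn the count ran from 7 to 11.

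The promoter of Acta2 is shown for its CArG boxes, the serum response factor motif, which was searched by that name with up to 1 departure from the consensus (RefSeq, GRCm38.p6, 100 bases, matches in capitals).
Acta2 (chr19:34255378-34255477, minus strand): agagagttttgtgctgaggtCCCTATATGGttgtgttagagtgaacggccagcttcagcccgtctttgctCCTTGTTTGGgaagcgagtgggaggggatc
The matches end 74 and 24 bases before the start, and each departs from the consensus at 1 base. With up to 1 departure, 12 of 29 contractile genes with a sequence hold a match (41.4%), beside 21.1% of all genes with one. The exact consensus, which neither Acta2 match meets, is in the promoters of 6 of 29 contractile genes with a sequence (20.7%). It is in 1.63% of all genes with one. These counts describe letters only.

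Of the lists tested, fibrillar matrix had the largest share of members higher with TGFb, 16 of 25 measured members (2.84% of all genes tested). With XPO4 0 were higher, and the median was -0.477. Col1a1, the main fibrillar collagen chain (chromosome 11, 94936224 to 94953042), was at 84.6, 69.9 and 81.0 FPKM with XPO4 and 171, 161.6, 155.1 and 172 FPKM with TGFb (log2 difference -1.06, SE 0.08, limma adjusted p = 9.7e-05). Untreated EV libraries lay between, at 101, 99.3, 95.2 and 101 FPKM. Postn, the matricellular protein periostin, was at 0.391, 0.501 and 0.992 with XPO4, 0.413, 0.720, 0.884 and 1.02 in untreated EV and 4.90, 4.73, 4.01 and 3.72 FPKM with TGFb (log2 difference -1.73, SE 0.19, limma adjusted p = 0.000702). Here XPO4 and untreated EV overlapped and TGFb stood apart. Col1a2 (-0.80), Col5a2 (-0.80), Col11a1 (-1.65) and fibulin 2 (Fbln2, -0.74) were higher with TGFb as well. Fibronectin, Fn1, was at 86.4, 80.6 and 96.1 FPKM with XPO4 and 116, 126, 133 and 156.1 with TGFb, against 136, 128, 146 and 131 in untreated EV, so its lower level lay with XPO4 (-0.62 against untreated EV, adjusted p = 0.00261). Its head to head call ended without XPO4 library 0 or 1 (adjusted p = 0.0627 and 0.0676), and that of Col3a1 (-0.76) without XPO4 library 0 (0.0535). The count of 16 was 9 and 10 without XPO4 library 0 and 1.

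Enzymes that process collagen gave 5 of 21 members higher with TGFb (beside 2.84% of all genes tested) and 0 with XPO4. Lox, which cross-links collagen and elastin, was at 157.3, 149 and 157.8 FPKM with XPO4, 193, 212, 243 and 193 in untreated EV and 309.9, 366, 398 and 372 with TGFb (log2 difference -1.21, SE 0.09, limma adjusted p = 6.81e-05). The 3 groups did not overlap. Loxl2 (8.97, 10.9 and 11.03 against 19.1, 18.1, 17.9 and 17.9 FPKM, -0.77) and the procollagen proteinase Bmp1 (-0.74) had the same sign. The count of 5 was 3 without any of the XPO4 libraries or TGFb library 1. Matrix proteases split in direction, with 7 of 26 higher with TGFb and 4 with XPO4, beside 2.84% and 3.89% of all genes tested. The collagenase Mmp13 was at 31.7, 34.1 and 30.1 FPKM with XPO4 and 11.2, 12.04, 16.3 and 12.2 FPKM with TGFb (log2 difference 1.254, SE 0.13, limma adjusted p = 0.000454), with untreated EV between (19.9, 19.2, 23.5 and 18.3 FPKM). Its activator Mmp14 was at 59.6, 54.9 and 60.7 and 82.4, 99.2, 81.9 and 101 FPKM (-0.63), the opposite direction, as were the gelatinase Mmp2 (-0.77) and Adam12 (-1.505). Timp1, the protease inhibitor, did not pass (adjusted p = 0.179). The count of 4 higher with XPO4 was 1 on the TPM scale and without XPO4 library 0 or 1 or TGFb library 1, and 2 without XPO4 library 2 or TGFb library 0 or 3.

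Receptors for matrix were mixed, beside 3.89% of all genes tested higher with XPO4 and 2.84% with TGFb. The integrin chains Itgb1 (245 against 355 FPKM, -0.53) and Itgb5 (-0.61) were higher with TGFb, and Itgb7 was higher with XPO4 (12.3, 12.8 and 9.41 against 6.32, 5.77, 5.05 and 5.68 FPKM, 0.89), 1 of 9 measured integrins against 3. Itgb7 in untreated EV (11.5, 11.5, 9.01 and 10.8 FPKM) overlapped the XPO4 libraries and not those with TGFb. In the basement membrane list 2 of 14 were higher with TGFb, the laminin chain Lamb3 (1.30, 1.26 and 0.992 against 5.37, 5.28, 3.56 and 3.85 FPKM) and Col4a1 (-0.51). The count of 2 was 1 without XPO4 library 1 or 2, and the Col4a1 call ended without XPO4 library 1 or 2 or TGFb library 1 (adjusted p up to 0.0706).

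**Figure D3:**
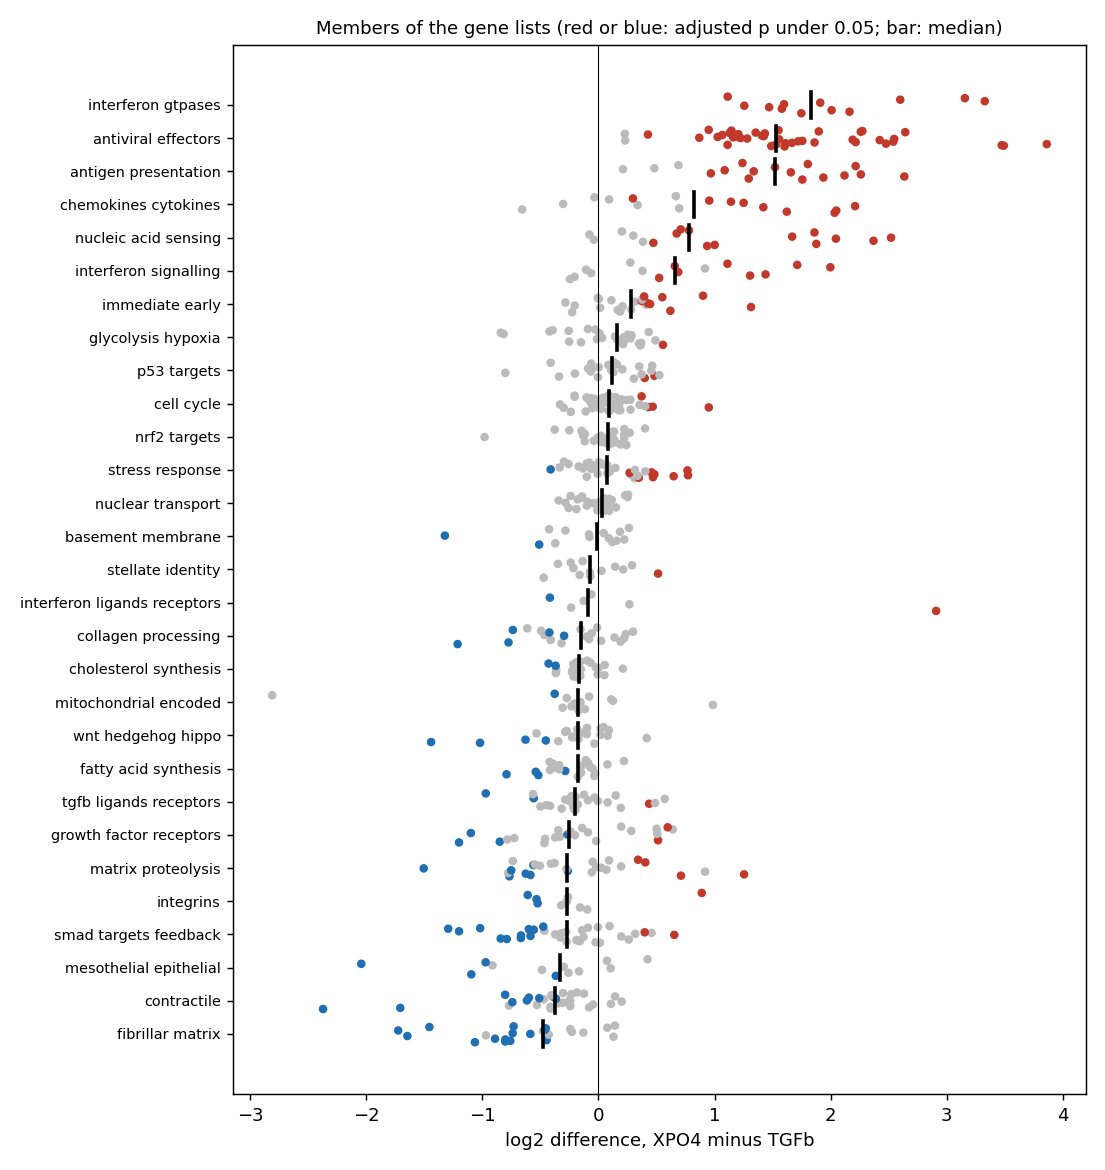
Log2 difference, XPO4 minus TGFb (horizontal axis), of every tested member of each gene list with at least 5 tested members (rows, 1 point per gene). Red and blue points are called higher with XPO4 and with TGFb, grey points are not called, and black bars are list medians. The interferon GTPases (median 1.83), antiviral effectors (1.53) and antigen presentation genes (1.52) lie farthest right, and fibrillar matrix (-0.477) and contractile genes (-0.375) farthest left.

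The same 24 largest differences can be set against the untreated EV cells, with the caution that both contrasts share those 4 control libraries. The 24 were also chosen from the same XPO4 and TGFb libraries that enter these contrasts, so their adjusted p is no separate support. Across all genes tested, 3.11% rose and 1.15% fell with XPO4, and 1.01% rose and 0.544% fell with TGFb. Of the antiviral effectors 41 rose with XPO4, and with TGFb 0 rose and 1 fell. Of the fibrillar matrix genes 9 rose and 1 fell with TGFb, and 5 fell with XPO4. Contractile genes rose in 5 cases with TGFb and fell in 3 with XPO4. The number of genes that changed with TGFb, 186, was 78, 83, 88, 99 and 108 without TGFb library 1, EV library 0, EV library 3, TGFb library 3 and EV library 1, and the 509 that changed with XPO4 were 318 without XPO4 library 0.

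Set side by side in this way, the top genes on the TGFb side were of 3 kinds. Ctsw, a lymphocyte cathepsin, was at 0, 0.198 and 0.212 FPKM with XPO4, 0.218, 0.207, 0.182 and 0 in untreated EV and 6.94, 4.85, 5.08 and 7.17 with TGFb, and moved with TGFb (2.59, limma adjusted p = 4.31e-05). Evpl, the cornified-envelope protein envoplakin, was at 0.588, 0.733 and 0.704 FPKM with XPO4, 6.44, 6.52, 4.28 and 4.96 in untreated EV and 6.53, 6.14, 5.17 and 5.82 with TGFb, and moved with XPO4 (-1.95, limma adjusted p = 5.51e-06). Klhl30 behaved like Acta2, at 2.57, 2.95 and 2.501, 5.44, 6.68, 6.72 and 5.69 and 10.1, 8.64, 8.83 and 10.9 FPKM in the same order, with -0.95 for XPO4 and 0.57 for TGFb. On the XPO4 side all 12 genes rose with XPO4 and none passed with TGFb, where their differences from untreated EV ran from -0.48 (H2-T23) to 0.16 (Tgtp2). Ly6a, a GPI-anchored surface protein, was at 137, 154.3 and 143 FPKM with XPO4, 21.1, 18.9, 30.5 and 25.5 in untreated EV and 18.1, 13.7, 17.6 and 17.6 with TGFb, and Mpeg1, which encodes perforin-2, at 14.01, 15.6 and 16.3, 1.36, 1.04, 1.57 and 1.79 and 0.653, 0.740, 1.15 and 0.533 FPKM. For Mtus1, highest with TGFb at 4.08, 5.16, 8.99 and 14.03 FPKM, the head to head call ended without XPO4 library 0 or 1 or TGFb library 2 (adjusted p up to 0.115).

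**Figure D4:**
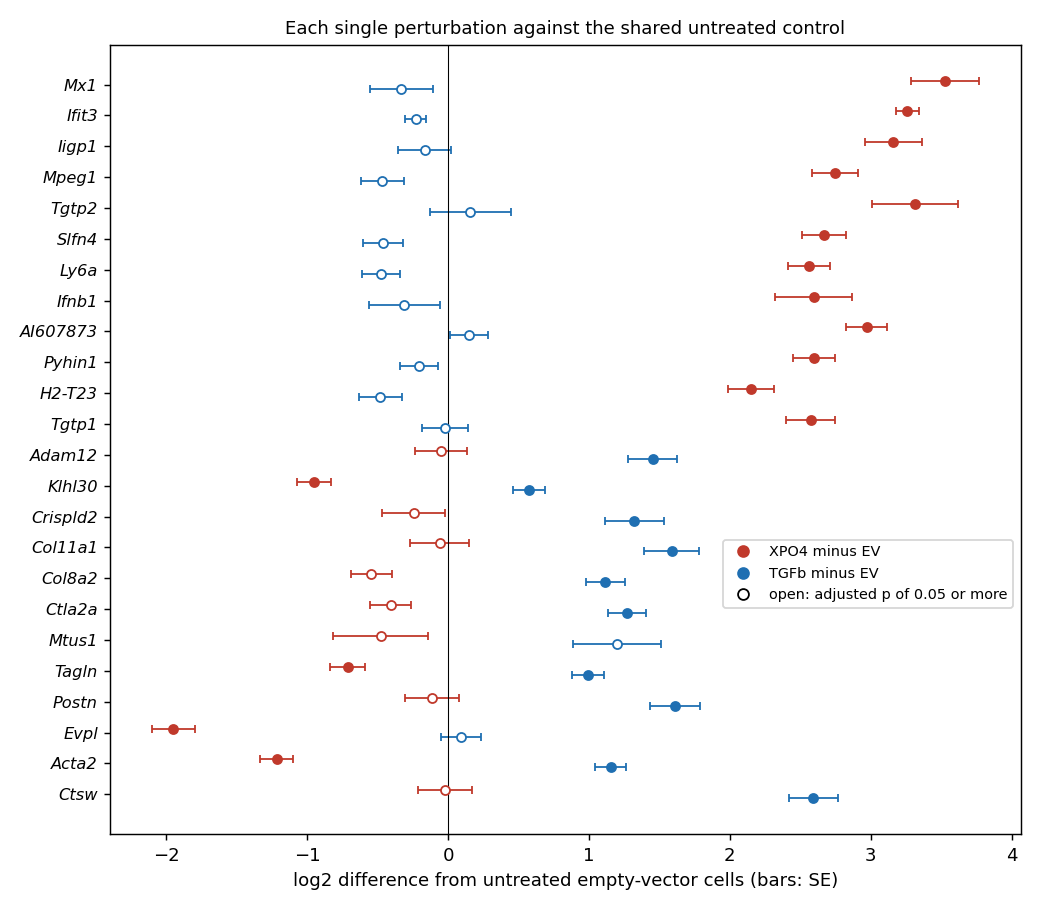
Log2 difference from untreated empty-vector cells (horizontal axis, bars are SE) for the 24 genes with the largest head to head differences (rows), with XPO4 in red and TGFb in blue. Filled points passed at an adjusted p under 0.05. The 12 upper genes have filled red points between 2.15 and 3.53 and open blue points between -0.48 and 0.16, and of the lower 12 only Acta2, Tagln, Klhl30 and Evpl have filled red points.

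Growth factors of the fibrogenic response were split by group. Pdgfb, a mitogen for stellate cells, was at 3.24, 5.96 and 5.87 FPKM with XPO4 and 14.7, 13.2, 10.5 and 11.96 FPKM with TGFb (log2 difference -1.20, SE 0.20, limma adjusted p = 0.00705). Pdgfc (-0.85) and Igfbp7 (-1.10) were also higher with TGFb, part of 4 of 24 genes of the growth factor list, against 2 higher with XPO4. Over all genes tested those shares were 2.84% and 3.89%. The PDGF receptor gene Pdgfra went the other way (18.5, 16.9 and 18.4 against 10.9, 11.8, 13.6 and 12.8 FPKM, 0.51), a call that ended without XPO4 library 0 or 2 or TGFb library 1 (adjusted p up to 0.0861). Untreated EV cells, at 16.9, 16.4, 19.4 and 18.0 FPKM of Pdgfra, overlapped the XPO4 libraries. The count of 2 was 0 without XPO4 library 0 or TGFb library 1, and 1 without XPO4 library 1 or 2 or TGFb library 3. In the Wnt, hedgehog and Hippo list 4 of 22 were higher with TGFb (beside 2.84% of all genes tested) and 0 with XPO4. The ligand Wnt9a was at 4.67, 4.15 and 5.85 with XPO4, 9.62, 10.2, 9.85 and 11.8 in untreated EV and 15.1, 15.9, 15.3 and 13.3 FPKM with TGFb (-1.44), and its receptor family member Fzd2 at 74.7 against 116 FPKM (-0.63). The count of 4 was 2 without XPO4 library 0 or 1 or TGFb library 2.

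Genes of mesothelial and epithelial type were lower with XPO4 than with TGFb in 4 of 12 measured members, beside 2.84% of all genes tested. Upk1b, a uroplakin, was at 17.5, 20.0 and 18.0 FPKM with XPO4, 39.2, 42.0, 45.6 and 36.2 with TGFb and 37.9, 34.3, 43.3 and 43.9 in untreated EV (log2 difference -1.09, SE 0.10, limma adjusted p = 0.000209). TGFb and untreated EV overlapped, and XPO4 stood below both. Upk3b was lowered in each perturbation, at 59.4, 60.7 and 63.8 FPKM with XPO4, 78.0, 78.0, 75.4 and 86.3 with TGFb and 118, 123, 117 and 122 in untreated EV (limma adjusted p against EV = 1.76e-06 and 0.00047). Its head to head difference was -0.37, and that call ended when any 1 of 5 libraries was left out (adjusted p up to 0.0957).

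Immediate early genes, transcribed within minutes of a stimulus, were higher with XPO4 in 8 of 23 members (beside 3.89% of all genes tested). With TGFb 0 were higher, and the median was 0.282. Egr1, a zinc finger factor, was at 91.6, 97.2 and 96.2 FPKM with XPO4, 53.3, 52.3, 51.5 and 54.8 in untreated EV and 39.7, 33.5, 39.5 and 38.03 with TGFb (log2 difference 1.31, SE 0.08, limma adjusted p = 2.31e-05). Its 3 groups did not overlap, and both steps passed against EV (0.83 and -0.48, adjusted p = 1.35e-05 and 0.00323). Zfp36, which destabilises cytokine mRNAs, was at 66.7, 67.1 and 58.9 against 31.4, 35.3, 33.9 and 35.05 FPKM (0.90), with Fosl1 at 0.62. The count of 8 was 4 without XPO4 library 0 or 1. Of the D-type cyclins, which drive entry into the cell cycle, Ccnd1 was at 182, 187 and 172 FPKM with XPO4, 154.5, 149.5, 151 and 139 in untreated EV and 95.4, 84.5, 99.9 and 92.1 with TGFb (log2 difference 0.95, SE 0.08, limma adjusted p = 0.000112). Most of that gap was the lower level with TGFb (-0.67 against EV, and 0.28 with XPO4). In the cell cycle list 4 of 46 were higher with XPO4, beside 3.89% of all genes tested. The calls of Ccnd2, Ccnd3 and Myc ended in turn when single libraries were left out (adjusted p up to 0.0756, 0.108 and 0.114). The count of 4 was 1 without any of the XPO4 libraries and 2 without TGFb library 2.

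Stress response genes were higher with XPO4 in 8 of 35 members and with TGFb in 1, Xbp1, beside 3.89% and 2.84% of all genes tested. Chac1, which degrades glutathione and is a target of Atf4 and Ddit3, was at 99.4, 86.4 and 97.3 FPKM with XPO4, 72.2, 70.5, 63.7 and 78.6 in untreated EV and 56.9, 53.5, 54.2 and 54.6 with TGFb (log2 difference 0.77, SE 0.07, limma adjusted p = 0.000309). Nupr1, a stress-induced chromatin protein, was at 61.5, 56.3 and 64.2 against 38.3, 39.0, 29.1 and 35.3 FPKM (0.77). Both were separate between the groups. Ddit3 (0.65), Atf5 (0.47), Psat1 (0.46) and Atf4 (0.35) differed less. The count of 8 was 4 without XPO4 library 0 or 1, and the count of 1 was 0 without XPO4 library 1 or 2 or TGFb library 3 and 2 without TGFb library 0. Of 24 p53 targets, 2 passed, Cdkn1a (0.40) and Sesn2 (0.48), beside 6.73% of all genes tested. Neither call held with each library left out (adjusted p up to 0.117 and 0.0528). Against untreated EV, 7 of the 24 rose with XPO4 and 0 with TGFb, beside 3.11% and 1.01% of all genes tested. Their median differences from EV were 0.29 and 0.184.

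Of the lipid genes, 4 of 21 fatty acid genes and 2 of 24 cholesterol genes were higher with TGFb, beside 2.84% of all genes tested, and 0 of either list were higher with XPO4. The desaturase Scd2 was at 276, 282 and 295 FPKM with XPO4, 427, 454, 457 and 413 in untreated EV and 463, 475, 527 and 509 with TGFb (log2 difference -0.79, SE 0.07, limma adjusted p = 0.000175), and Scd1 at 78.4, 79.9 and 78.3, 103, 118, 127 and 106 and 105, 109, 124 and 116 FPKM (-0.52). XPO4 lay below untreated EV for both (-0.62 and -0.51, limma adjusted p = 7.94e-05 and 0.00307), and TGFb did not pass against EV for either (adjusted p = 0.244 and 0.99). The fatty acid count was 2 without XPO4 library 0 or 1 or TGFb library 1 or 3, and the cholesterol count 1 without XPO4 library 1. In contrast, 0 of 30 nuclear transport genes and 0 of 28 Nrf2 targets passed, beside 6.73% of all genes tested. Their medians were 0.0263 and 0.0832 beside 0.00742 for all genes tested. In the mitochondrial genome 1 of 13 genes passed, mt-Cytb (-0.38, a call that ended without any 1 of 6 libraries), and of 27 glycolysis genes 1 passed, Hk2 (0.56, which ended without any 1 of 5, while 4 glycolysis genes passed without TGFb library 0).

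The labels give the libraries codes in 2 runs, under 160 (replicates 0 and 1) and 160 or over (replicates 2 and 3), which are not stated to be batches. Within the first run (2 against 2 libraries) 178 genes were higher with XPO4 and 54 with TGFb, and within the second (1 against 2) the numbers were 3 and 0. With the run as a term in the fit over all 7 libraries, the counts stayed within 1.5 times those above.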

How the data were processed

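RNA was measured in 15 JS1 libraries. Per the labels' protocols, messenger RNA was captured with poly-T beads and made into directional libraries with dUTP. CASAVA 1.8.2, STAR 2.7.2b and the builds mm10 and GRCh38 are listed without a role, per the submitters' processing notes. The authors deposited FPKM values, made by a program not given in the sources used here, in 1 table per treatment. The tables were joined on the gene identifier (38277 in both). FPKM is scaled to gene length and library, holds no counts, and gives no counting error. Steps between the lowest values put the depth of the other libraries used at 0.917 to 1.17 times that of TGFb library 0. That rests on the commonest ratio of low values, which few genes shared in some libraries. It was 61 of 2084 genes for TGFb library 2 and 64 of 2088 for EV library 2, against 363 of 1813 for XPO4 library 0. The depth is therefore uncertain.

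Groups come from titles and characteristics. Genes that averaged 1 FPKM or more were tested on log2(FPKM + 1) with limma 3.58.1 (mean-variance trend, R 4.3.3), on 7 libraries head to head and on 11 against untreated empty vector, with Benjamini-Hochberg adjustment over all genes tested. Each empty-vector comparison uses the same 4 controls. The fit was tested on simulated data with independent noise, which cannot bear on effects shared by libraries or on the separate tables. Positions are from GENCODE M21 (36342 of 38277 identifiers) and promoters from RefSeq. Figures were drawn with matplotlib 3.10.9 in Python 3.11.15.

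The comparison, its 36 gene lists and the naming rule were chosen with earlier results of these data known. The rule took Xpo4, the 12 largest differences per side (called, groups separate, symbol unique and not a predicted name), up to 4 members per list with the smallest p, and 16 fixed genes, 148 in all. The text describes part of them, chosen after their values were seen. Results for some genes are not reported here. Members of a list that are given only by their log2 difference need not be among the 148.

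The alternatives were a pseudocount of 0.1 or 0.5, a filter of 5 FPKM or none, quantile, TPM-scale and median scaling, blocks by replicate number and library run, each run alone, array weights, no trend, a joint fit of 3 or 4 groups, and each library left out in turn.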

Additional observations from a re-analysis of the deposited data

Results flagged for a closer look

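Among the 148 named genes, the 4 TGFb and the 4 untreated empty-vector libraries were searched for 1 library far from the other 3, that is, a gap to the nearest library above Dixon's 95% critical value as a share of the group's range. Chance flags about 1 in 20 groups, and 20 of 296 groups (6.76%) were found, of which all but 1 are described. No explanation was tested for any of them.

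In the TGFb group, Ifnb1 was listed at 0.334 FPKM in library 2 and at 0 in the others (gap 1 of the range). Chemokine genes stood out in opposite directions, Ccl7 high in library 2 at 19.4 FPKM against 15.2 to 15.5 (0.931) and Ccl5 low in library 1 at 117 against 141 to 143 (0.928). Ly6a was also low in library 1, at 13.7 FPKM against 17.6 to 18.1 (0.882). The procollagen proteinase Bmp1 was low in library 2, at 20.2 FPKM against 27.2 to 28.2 (0.883), and Loxl2 high in library 0, at 19.1 against 17.9 to 18.1 (0.835). Csf1r was high in library 0, at 3.87 FPKM against 2.61 to 2.72 (0.912). Ebp and Ets2 were low in library 3, at 147 FPKM against 159.4 to 160.1 (0.947) and 59.4 against 65.2 to 66.2 (0.857).

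In untreated empty-vector cells, library 2 was low for Eif5a (1223 FPKM against 1349 to 1358, 0.931), Phlda3 (188 against 234 to 238, 0.927), Col4a1 (78.2 against 86.0 to 86.8, 0.908), Pkm (1182 against 1412 to 1455, 0.844) and Pmepa1 (83.0 against 89.0 to 90.2, 0.834), and high for Mtus1 (3.81 against 2.21 to 2.31, 0.943). Library 3 was high for Spp1 (631 FPKM against 574 to 578, 0.936) and H2-Q4 (43.5 against 33.3 to 34.9, 0.838), and Ctsw was listed at 0 there (0.837). The mitochondrial gene mt-Atp8 was listed at 38.2 FPKM in library 0 and at 0 in the other 3 (gap 1 of the range).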

How the results depend on the processing

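Of the 108 named genes that were called, none changed direction under the alternatives run, and 85 held with each library left out. All 108 lost the call among libraries with codes of 160 and over, which leaves 1 library against 2. There the head to head counts were 3 higher with XPO4, 0 higher with TGFb and 3 in all, and among codes under 160 they were 178, 54 and 232.

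Same-numbered XPO4 and TGFb libraries did not deviate together (correlations of 0.0247, -0.0264 and 0.0208), which does not settle whether the numbers pair the samples. With untreated EV the same-numbered values were 0.0362, 0.0378 and 0.0449 for XPO4 and 0.0756, 0.0887, 0.174 and -0.0296 for TGFb. Differently numbered libraries ranged from -0.0633 to 0.0481 for XPO4 with EV and from -0.175 to 0.113 for TGFb with EV. With the replicate number as a block, the counts were 244, 107 and 351 in place of 465, 340 and 805. For other settings than these and single libraries, counts of called genes stayed within 1.5 times, but the larger side changed: the TPM scale gave 372 and 479, and quantiles 408 and 436. With no filter, more genes were tested (19300), and the share called against empty vector was 2.45% for XPO4 and 0.788% for TGFb in place of 4.26% and 1.56%.

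With each library left out in turn, head to head calls ran from 465 to 840, those higher with XPO4 from 273 to 489 and those higher with TGFb from 169 to 351. With any of the 11 libraries left out, also one outside the contrast, the share of genes called against empty vector ran from 2.66% to 4.4% for XPO4 and from 0.652% to 1.32% for TGFb, and the Xpo4 difference from 0.885 to 1.16.

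Changes of sign were confined to genes that had not passed. Smad7 became -0.0043 by quantiles, -0.053 on the TPM scale, -0.0079 with median centring, -0.14 among codes under 160, and -0.069 and -0.059 without XPO4 library 2 and TGFb library 2, with 0.0747 without XPO4 library 1 as the highest among left-out libraries. Cd14 became 0.0048 with a block by run, 0.31 among codes of 160 and over, and 0.076, 0.035 and 0.019 without XPO4 library 0, XPO4 library 1 and TGFb library 1. Krt7 became -0.23 among codes under 160, and -0.055 and -0.43 without TGFb library 1 and XPO4 library 2, with 0.521 without XPO4 library 1 as the highest among left-out libraries. Csf1r became -0.079 among codes of 160 and over. Causes were not tested. Without counts, the depth behind low genes is unknown, and differences near 1 FPKM depend on the pseudocount.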

Other observations

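Several of the largest differences belong to predicted or non-coding genes outside the naming rule, chosen after their values were seen. Gm4955 was at 15.98, 17.5 and 15.8 FPKM with XPO4 and 0.185, 0.782, 1.40 and 0.159 with TGFb. Gm13532 was at 31.5, 30.3 and 11.7 FPKM with XPO4 and at 0, 11.3, 0 and 0 with TGFb, but at 39.5, 10.8, 51.5 and 35.9 in untreated empty-vector cells. On the other side RNaseP_nuc was at 0, 8.68 and 0 FPKM with XPO4 and 33.5, 31.6, 43.1 and 31.9 with TGFb, and it ranged from 19.2 to 120 FPKM in untreated empty-vector cells.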
